A study of Mus musculus with 36 samples.

Results

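The genes described here are 10 genes of the NRF2 oxidative stress pathway, namely the regulators Nfe2l2, Keap1 and Sqstm1 and the target genes Hmox1, Nqo1, Gclm, Gclc, Txnrd1, Srxn1 and Prdx1. They were chosen by symbol, and each symbol matched 1 row in each of the 2 deposited expression tables, so that they are 10 of the 15385 genes listed for microglia, 10 of the 14551 listed for astrocytes and 10 of the 16690 symbols listed in all. All 10 passed the filter on low values in both tables. The cells were primary glia from the brains of C57BL/6 pups that were 2 to 4 days old; brains were pooled, mixed glia were grown for 12 days, microglia were selected with CD11b beads, astrocytes were selected from the fraction depleted of microglia, and the cells rested 24 to 48 h before they were treated for 4 h. Microglia received DMSO, the vehicle; N, Nec-1s alone, an inhibitor of RIPK1 kinase; T/5z, TNF with 5z-7, an inhibitor of the kinase TAK1; T/S/Z, TNF with a Smac mimetic and the caspase inhibitor zVAD; or either stimulus together with Nec-1s, written T/5z/N or T/S/Z/N. There were 4 libraries in each of these 6 microglial groups. Astrocytes received DMSO, N, T/S/Z alone or T/S/Z/N, with 3 libraries in each of the 4 groups, and no T/5z. 5z-7 is a reactive compound that binds cysteines covalently, so the comparison of T/5z with T/S/Z asks whether the stimulus that contains it was accompanied by higher levels of these genes. The stimuli also differ in the Smac mimetic and zVAD, whose own reactivity was not examined. No group received TNF alone, or 5z-7, the Smac mimetic or zVAD without TNF. The parts of the single compounds therefore cannot be told apart.

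NRF2, the transcription factor encoded by Nfe2l2, is held at a low level by KEAP1, which presents it for degradation. When cysteines of KEAP1 are modified by oxidants or electrophiles, or when KEAP1 is bound by p62, the product of Sqstm1, NRF2 accumulates and, together with small MAF proteins, binds antioxidant response elements and induces genes for haem breakdown, quinone reduction, glutathione synthesis and the thioredoxin system. BACH1 competes for the same elements, and several of these genes, Hmox1 and Sqstm1 among them, are also reached by inflammatory and other stress signals, which both microglia and astrocytes receive in injured brain.

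Promoter sequence was available from RefSeq (GRCm38.p6, from 250 bases before to 50 bases after each start) for 8 of the 10 genes; Hmox1 and Gclc had no entry. The core of the antioxidant response element, TGACNNNGC, was searched on both strands and was found for 5 of the 8 genes, Gclm, Txnrd1, Srxn1, Nfe2l2 and Prdx1, where 14.0% of the 27025 genes in the table have a promoter that holds it (12.4% of all 32851 promoters). A related motif, TGANTCAGC, bound by NRF2 with small MAF proteins, was found for 2 of the 8, Srxn1 and Prdx1, against 1.37% of all genes (1.19% of promoters). TGANTCA, the AP-1 motif contained in TGANTCAGC, was also found for Srxn1 and Prdx1, against 8.97% (7.81% of promoters). TGANTCAGC allows bases other than C after TGA, so its matches need not be TGACNNNGC matches. For Srxn1 the TGACNNNGC match is another site, at base 29 after the start. A match describes the letters in these windows and does not show that a factor binds there. The stretches around 4 matches are shown because Txnrd1, Srxn1, Gclm and Prdx1 are the genes of glutathione synthesis and of the thioredoxin system that were called in the comparisons described after them. All 4 are on the plus strand, with the motif in capitals; where the motif lies on the minus strand, the capitals show its complement read on the plus strand.
Srxn1, TGANTCAGC at 45 bases before the start, chr2:152105439-152105523: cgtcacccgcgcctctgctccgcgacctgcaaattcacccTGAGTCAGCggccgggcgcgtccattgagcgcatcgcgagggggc
Prdx1, TGANTCAGC and TGACNNNGC at 133 bases before the start, minus strand, chr4:116685426-116685514: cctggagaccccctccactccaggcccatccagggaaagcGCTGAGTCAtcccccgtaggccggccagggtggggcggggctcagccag
Gclm, TGACNNNGC at 134 bases before the start, minus strand, chr3:122245383-122245471: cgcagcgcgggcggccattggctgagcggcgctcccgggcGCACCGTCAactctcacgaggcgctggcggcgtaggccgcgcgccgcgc
Txnrd1, TGACNNNGC at 92 bases before an alternative start inside the gene, minus strand, chr10:82859074-82859162: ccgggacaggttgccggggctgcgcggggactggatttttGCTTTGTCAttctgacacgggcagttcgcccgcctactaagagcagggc
In GENCODE M21 none of the 4 motifs lies in an exon; that of Txnrd1 lies in an intron of the gene, and the last few bases of the Srxn1 stretch belong to its first exon.

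Levels are the deposited log2 FPKM values, read as log2(FPKM + 1) because unadjusted libraries have no value below 0, where FPKM is fragments per kilobase of exon scaled to the size of the library, so that 1 unit is a doubling for well expressed genes and less than a doubling of FPKM for genes near 1 FPKM. Per the labels the 2 tables come from libraries of different providers; they were normalized separately and use different exon lengths, so levels were compared within a table only. Microglial markers summed to 6909 to 8521 FPKM per library in the microglial groups and astrocyte markers to 2902 to 3358 FPKM in the astrocyte groups, while in the astrocyte libraries 4 fibroblast markers summed to 505 to 517 FPKM in DMSO. The spacing of low values gave an estimated depth of 21300000 to 22400000 fragments in the astrocyte libraries and 18200000 to 25300000 in microglial replicate 4; it could not be estimated in microglial replicates 1 to 3, whose values had been adjusted so that each gene has the same mean in every replicate. At that depth Nqo1 in the libraries of microglial replicate 4 rested on an estimated 26 to 46 fragments each, against at least 1224 for each of the other 9 genes. Whether the counted unit was reads or fragments is not given in the sources used here. In bulk RNA, fewer cells of a type and less RNA per cell cannot be told apart, and the labels number the replicates without saying that they were separate cultures. The study's methods define n as biological replicates, for cultured mouse cells as cells from separate litters, without naming these libraries. Its legends give n = 4 for the microglial and n = 3 for the astrocyte RNA-seq. The tests measure the spread between libraries, which the labels alone do not show to be biological. In microglia they measure only what was left of it after the replicate means had been made equal. A gene was called at a fold change over 1.5 with an adjusted p under 0.05 (limma with the replicate number as a block, Benjamini-Hochberg over all genes tested), and a member is said to have risen or fallen only when called.

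Both stimuli raised most of these genes in microglia. After T/5z, 6 of the 10 rose and none fell, namely Hmox1, Nqo1, Txnrd1, Srxn1, Sqstm1 and Nfe2l2; over all 10524 genes tested 24.4% were called, 11.1% higher. After T/S/Z, 7 rose and none fell, namely Hmox1, Gclm, Txnrd1, Srxn1, Sqstm1, Nfe2l2 and Prdx1, against 29.6% of all genes called and 12.2% called higher. The median log2 difference of the 10 was 0.67 with T/5z and 0.94 following T/S/Z, where the median of all genes was -0.06 and -0.08. Hmox1, Txnrd1, Srxn1, Sqstm1 and Nfe2l2 were called after both stimuli; the comparisons share the DMSO libraries.

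**Figure D1:**
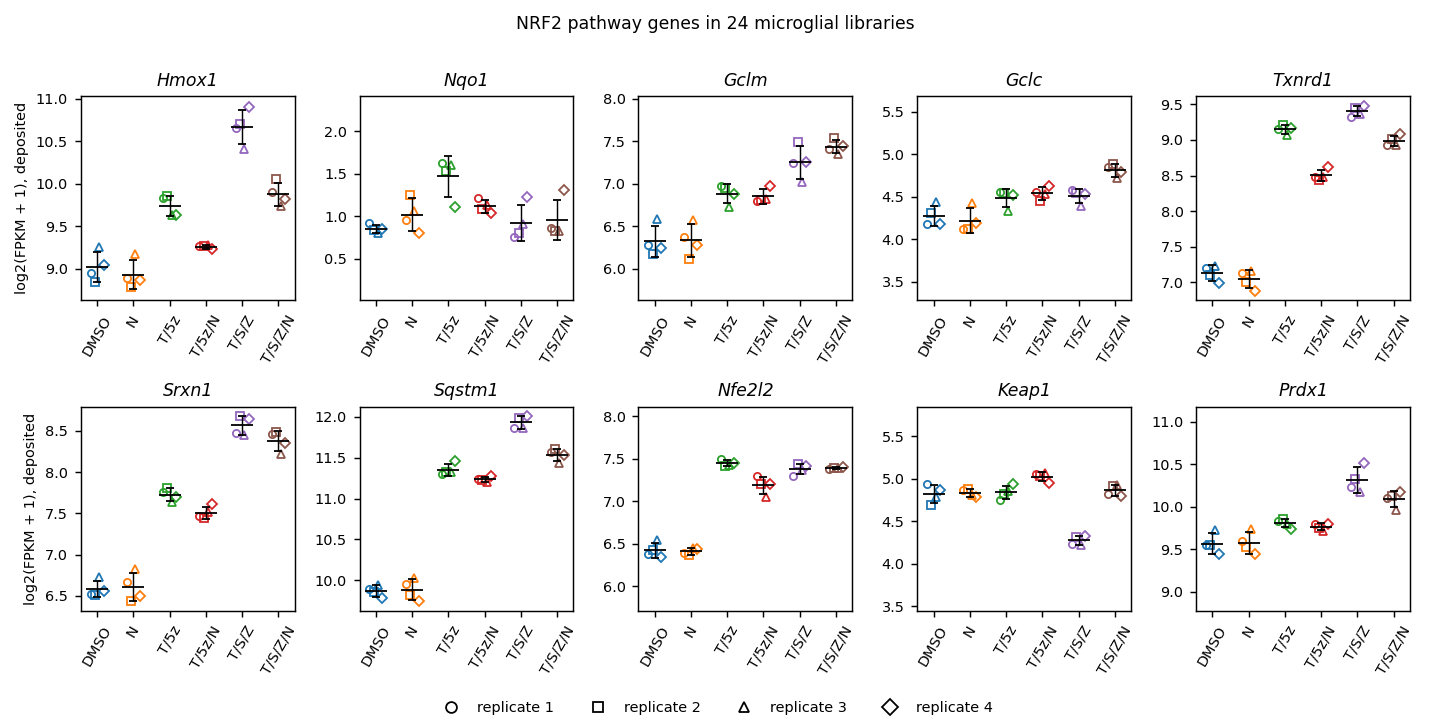
Deposited log2(FPKM + 1) level of each of the 10 genes (vertical axis, every panel spanning at least 2.4 units) in the 6 microglial groups (horizontal axis). Points are libraries, with the symbol giving the replicate, and the bars are the mean and SD of 4 libraries; Srxn1, Sqstm1 and Hmox1 were highest in T/S/Z, Nqo1 was highest in T/5z, and Keap1 was lowest in T/S/Z.

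Of the regulators, Nfe2l2 itself rose to a similar level after either stimulus. Its level was 6.37, 6.43, 6.54 and 6.34 in the 4 DMSO libraries, 7.49, 7.41, 7.43 and 7.44 in T/5z, and 7.30, 7.43, 7.37 and 7.41 in T/S/Z. The stimulated groups overlapped each other and lay above every DMSO library. The log2 difference from DMSO was 1.02 ± 0.05 (SE, n = 4 per group) with T/5z and 0.96 ± 0.05 following T/S/Z, with adjusted p values from limma of 6.84e-06 and 3.82e-06.

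Sqstm1, which encodes the autophagy receptor p62, was the most abundant of the 10 transcripts per kilobase in T/S/Z, at 3912 ± 214 FPKM (SD, n = 4). Its log2 level was 9.89, 9.86, 9.95 and 9.78 in DMSO, 11.30, 11.32, 11.32 and 11.45 in T/5z, and 11.86, 11.99, 11.87 and 12.01 in T/S/Z. No 2 of these groups overlapped. It rose 2.79-fold with T/5z and 4.18-fold following T/S/Z.

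Keap1, the repressor of NRF2, was not called after either stimulus. Its level was 4.93, 4.69, 4.78 and 4.86 in DMSO, 4.75, 4.82, 4.86 and 4.93 in T/5z, and 4.23, 4.32, 4.22 and 4.33 in T/S/Z. The T/5z libraries overlapped the DMSO range, whereas every T/S/Z library lay below it; the log2 difference of T/S/Z from DMSO was -0.54 ± 0.07, with an adjusted p of 0.000194 from limma but a fold just short of the minimum, and -0.60 and called without replicate 2. An antisense gene, Gm16754, shares 510 exon bases with Keap1, and whether the microglial libraries kept strand is not given in the sources used here.

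Hmox1, which encodes the inducible haem oxygenase, showed a graded pattern. Its level was 8.95, 8.84, 9.25 and 9.04 in DMSO, 9.83, 9.85, 9.63 and 9.63 in T/5z, and 10.66, 10.70, 10.41 and 10.90 in T/S/Z. The 3 groups did not overlap. The rise was 1.64-fold after T/5z (log2 0.72 ± 0.10, adjusted p = 0.000784, limma) and 3.13-fold after T/S/Z (log2 1.65 ± 0.11, adjusted p = 8.48e-06); under quantile normalization the T/5z difference was 0.54 and was not called.

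Nqo1, a quinone reductase that is often used as a readout of NRF2, was the lowest of the 10 in microglia and the one called after T/5z but not after T/S/Z. Its log2 level was 0.92, 0.84, 0.80 and 0.85 in DMSO, 1.62, 1.53, 1.61 and 1.11 in T/5z, and 0.75, 0.80, 0.90 and 1.23 in T/S/Z. Replicate 4 was the lowest library of T/5z and the highest of T/S/Z, and with it the 2 stimulated groups overlapped. Since the replicates were given equal means for each gene, a replicate high in some groups must be low in others. In FPKM the means were 0.804 ± 0.0616 in DMSO, 1.79 ± 0.432 in T/5z and 0.909 ± 0.299 in T/S/Z (SD, n = 4). The T/5z difference of 0.62 ± 0.11 (adjusted p = 0.00256, limma) was not called without replicate 3 (0.55), nor with 5 in place of 1 added before the log (0.22). Nqo1 reached the filter level of 1 in 12 of the 24 microglial libraries, 8 of them in T/5z and T/5z/N and 4 in other groups, where the filter asks for 4. Fibroblast markers moved with it: 3 of the 4 passed the filter and all 3 rose after T/5z, none after T/S/Z, and their sum over the 4 was 11.6, 14.9, 11.1 and 8.25 FPKM in the T/5z libraries, lowest in replicate 4 as for Nqo1, against 4.54 to 6.24 in DMSO and 3.68 to 6.08 in T/S/Z. The weakest of the 4, Lum, had a mean log2 level of 0.09 in DMSO. Astrocyte markers summed to 11.8 to 21.6 FPKM in T/5z, 13.2 to 19.3 in T/S/Z and 6.98 to 8.93 in DMSO, with 4 of the 6 that passed the filter higher after each stimulus. In astrocytes Nqo1 stood at 19.4 ± 1.40 FPKM in DMSO in the other table. Of the 10 microglial markers 1 rose and 2 fell after T/5z, and the 1 endothelial marker tested, Pecam1, fell after both stimuli (-0.95 and -1.13). What part other cells had in the microglial Nqo1 values was not tested.

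The 2 subunits of glutamate-cysteine ligase, the first enzyme of glutathione synthesis, differed in how much they moved. Gclm, the modifier subunit, had levels of 6.28, 6.18, 6.59 and 6.25 in DMSO, 6.98, 6.95, 6.73 and 6.88 in T/5z, and 7.24, 7.49, 7.02 and 7.26 in T/S/Z. All stimulated libraries were above all DMSO libraries, with replicate 3 the highest in DMSO and the lowest after each stimulus. The equal means of the replicates force part of this opposite pattern. The T/S/Z difference of 0.93 ± 0.12 was called (adjusted p = 0.000283, limma); that of T/5z, 0.56 ± 0.10, had an adjusted p of 0.00244 and fell short of the fold minimum, which it passed without replicate 3 (0.70) or with libraries centred on their medians (0.63). Gclc, the catalytic subunit, differed by 0.21 ± 0.08 after T/5z (adjusted p = 0.0625) and by 0.24 ± 0.08 after T/S/Z (adjusted p = 0.0286), and its DMSO range of 4.17 to 4.43 overlapped both stimulated groups.

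Of the 3 genes of the thioredoxin system, Txnrd1, the cytosolic thioredoxin reductase, had the largest rise of all 10 genes after each stimulus. Its levels were 7.21, 7.10, 7.22 and 6.98 in DMSO, 9.15, 9.21, 9.06 and 9.17 in T/5z, and 9.32, 9.45, 9.36 and 9.48 in T/S/Z. The groups did not overlap, and the folds were 4.06 after T/5z (log2 2.02 ± 0.07) and 4.84 after T/S/Z (log2 2.27 ± 0.07). Srxn1, sulfiredoxin, which repairs overoxidized peroxiredoxins, had levels of 6.52, 6.51, 6.73 and 6.56 in DMSO, 7.76, 7.81, 7.63 and 7.70 in T/5z, and 8.48, 8.68, 8.45 and 8.64 in T/S/Z. It rose 2.21-fold with T/5z and 3.95-fold following T/S/Z, again with no overlap between the 3 groups. Prdx1, an abundant peroxiredoxin and a substrate of sulfiredoxin, was called after T/S/Z and not after T/5z. Its level went from 9.55, 9.54, 9.73 and 9.44 in DMSO to 10.24, 10.32, 10.17 and 10.52 in T/S/Z, a log2 difference of 0.75 ± 0.09 (adjusted p = 0.000186, limma). After T/5z its levels were 9.83, 9.85, 9.79 and 9.74, a difference of 0.24 ± 0.06. Under quantile normalization the T/S/Z difference of Prdx1 was 0.38 and not called.

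Compared directly, Hmox1 and Srxn1 were lower in T/5z than in T/S/Z and the other 8 genes were not called. None of the 10 was called higher in T/5z and 2 were called lower, against 4.42% of all genes called higher, 5.42% called lower and 9.83% called in all. The median difference of T/5z minus T/S/Z over the 10 was -0.31, where that of all genes was 0.03. Hmox1 was lower in T/5z by a log2 difference of -0.93 ± 0.09 (adjusted p = 0.000231, limma) and Srxn1 by -0.84 ± 0.05 (adjusted p = 4.33e-05), each in 4 of 4 pairs of same-numbered libraries. Without regard to the fold minimum, 6 of the 10 had an adjusted p under 0.05 with a lower level in T/5z and 2 with a higher level, where 18.7% of all genes were lower and 21.4% higher at that limit. Beside Hmox1 and Srxn1 the lower ones were Gclm (-0.37 ± 0.06), Txnrd1 (-0.25 ± 0.05), Sqstm1 (-0.58 ± 0.06) and Prdx1 (-0.51 ± 0.08). The difference of Sqstm1 was within rounding of the minimum and was called without replicate 1, 3 or 4 and with libraries centred on their medians (-0.61). Nfe2l2 differed by 0.07 with a 95% interval of -0.05 to 0.19 and Gclc by -0.03 with an interval of -0.14 to 0.09, so that differences of the size seen for Hmox1 and Srxn1 lie outside both intervals.

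Keap1 and Nqo1 had the opposite sign. Keap1 was higher in T/5z than in T/S/Z by 0.57 ± 0.05 (adjusted p = 0.000214, limma), in 4 of 4 pairs, and the groups did not overlap; it missed the fold minimum and passed it without replicate 2 (0.59). Nqo1 differed by 0.55 ± 0.16 (adjusted p = 0.034) in 3 of 4 pairs and by 0.77, which was called, without replicate 4; so the number of genes called in this comparison was 4 without replicate 4 and 3 without any other replicate.

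**Figure D2:**
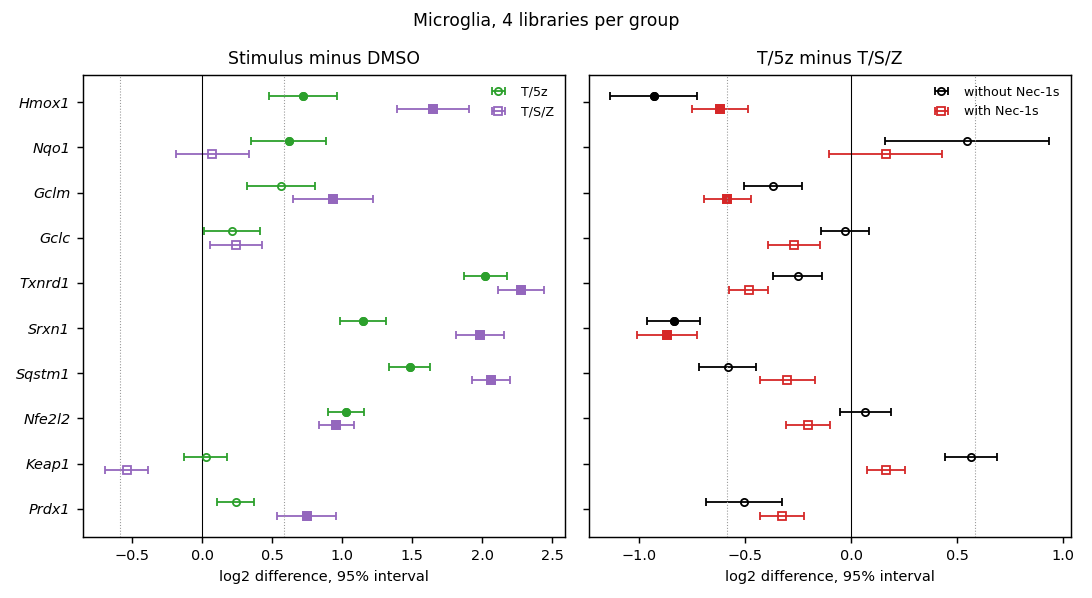
Log2 differences of the 10 genes in microglia with 95% intervals from limma (horizontal axis) for each stimulus minus DMSO on the left and T/5z minus T/S/Z in the absence and presence of Nec-1s on the right. Filled symbols were called and dotted lines mark a 1.5-fold change; in the right panel Hmox1 and Srxn1 lie left of the dotted line in both colours, and Keap1 lies right of 0 in both.

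The same comparison was made with RIPK1 kinase inhibited in both groups. In T/5z/N minus T/S/Z/N, 3 of the 10 were called and all were lower in T/5z/N, Hmox1 (-0.62 ± 0.06), Gclm (-0.59 ± 0.05) and Srxn1 (-0.87 ± 0.06), against 3.38% of all genes called, 1.59% higher and 1.8% lower. At an adjusted p under 0.05 from limma without the fold minimum, 8 of the 10 were lower in T/5z/N and 1, Keap1, was higher (0.16 ± 0.04), where 12.5% of all genes were lower and 13.7% higher. Gclm stood at the fold minimum, and without replicate 2 both Gclm (-0.54) and Hmox1 (-0.56) fell short of it, leaving 1 gene, Srxn1. Gclm also fell short without replicate 1 (-0.58). Of the 3 fibroblast markers tested, 2 were higher in T/5z than in T/S/Z and 1 was higher in T/5z/N than in T/S/Z/N. Of the 10 microglial markers, 1 was higher and 1 lower in T/5z than in T/S/Z. In T/5z/N minus T/S/Z/N, 1 of them was lower. The part of other cells in these comparisons was not tested.

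Few of the 10 genes were called in microglia when Nec-1s was added to a stimulus, and none of those calls held under quantile normalization. In T/5z/N minus T/5z, 1 of the 10 was called, Txnrd1, which fell by 0.65 on the log2 scale (SE 0.05, adjusted p = 3.25e-05, limma), against 7.16% of all genes called, 2.64% higher and 4.52% lower. Its levels in T/5z/N were 8.47, 8.44, 8.48 and 8.62, all below T/5z and above DMSO; under quantile normalization the difference was -0.57 and not called. Hmox1 in T/5z/N was 9.26, 9.26, 9.28 and 9.23, a difference of -0.48 ± 0.06 from T/5z that missed the fold minimum, and its range reached into that of DMSO. Nqo1 in T/5z/N was 1.21, 1.08, 1.13 and 1.04, -0.35 ± 0.10 from T/5z, beside a fibroblast marker sum of 5.08 to 6.47 FPKM. Astrocyte markers were also lower with Nec-1s in the microglial libraries, 4 of the 6 tested after each stimulus, with sums of 7.91 to 8.86 FPKM in T/5z/N and 4.88 to 5.90 in T/S/Z/N. Among the other lists, 1 of 3 fibroblast markers was lower in T/5z/N than in T/5z, the oligodendrocyte marker Mbp was higher in T/S/Z/N than in T/S/Z (0.62), and of the 10 microglial markers 1 was higher and 1 lower with Nec-1s after T/5z and 1 was higher after T/S/Z. The part of these cells in the Nec-1s differences was not tested.

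In T/S/Z/N minus T/S/Z, 2 of the 10 were called, against 12.1% of all genes, 5.35% higher and 6.72% lower: Hmox1 was lower and Keap1 higher. Hmox1 went from the T/S/Z levels given above to 9.90, 10.05, 9.73 and 9.82, a difference of -0.79 ± 0.09 (adjusted p = 0.000281, limma) that was -0.41 and not called under quantile normalization. Keap1 went to 4.82, 4.91, 4.92 and 4.80, within the range of the DMSO libraries, a difference of 0.59 ± 0.05 (adjusted p = 6.9e-05). It passed the fold minimum narrowly, and was not called without replicate 2 (0.58) or replicate 3 (0.55), with centred libraries (0.51), under quantile normalization (0.58) or with 5 added before the log (0.50). Gclm and Gclc differed upwards, by 0.18 ± 0.06 and 0.30 ± 0.04, and were not called.

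As a share of the stimulus difference on the log2 scale, Nec-1s took back 66.7% of the T/5z rise of Hmox1, 57.3% of that of Nqo1, 32.0% of Txnrd1, 25.1% of Nfe2l2, 18.9% of Srxn1 and 7.71% of Sqstm1. For T/S/Z the share was 47.9% for Hmox1, 29.4% for Prdx1, 19.2% for Sqstm1, 18.3% for Txnrd1 and 9.36% for Srxn1, and it was below 0 for Nfe2l2 and Gclm. Under quantile normalization the T/S/Z/N minus T/S/Z difference changed sign for Srxn1 (0.13, adjusted p = 0.0108, limma) and Prdx1 (0.0600) and was -0.41 in place of -0.79 for Hmox1, so the T/S/Z shares and their order depend on the scaling. Both differences in such a share use the same stimulated libraries. What remained under Nec-1s was still above DMSO: 4 of the 10 were called higher in T/5z/N, namely Txnrd1, Srxn1, Sqstm1 and Nfe2l2, against 12.8% of all genes called, 6.16% higher and 6.69% lower, and 6 in T/S/Z/N, namely Hmox1, Gclm, Txnrd1, Srxn1, Sqstm1 and Nfe2l2, against 14.1% called, 6.2% higher and 7.87% lower. Sqstm1 in T/S/Z/N, for example, was 11.57, 11.60, 11.43 and 11.54, and Srxn1 was 8.47, 8.48, 8.22 and 8.35, every library far above the DMSO range.

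**Figure D3:**
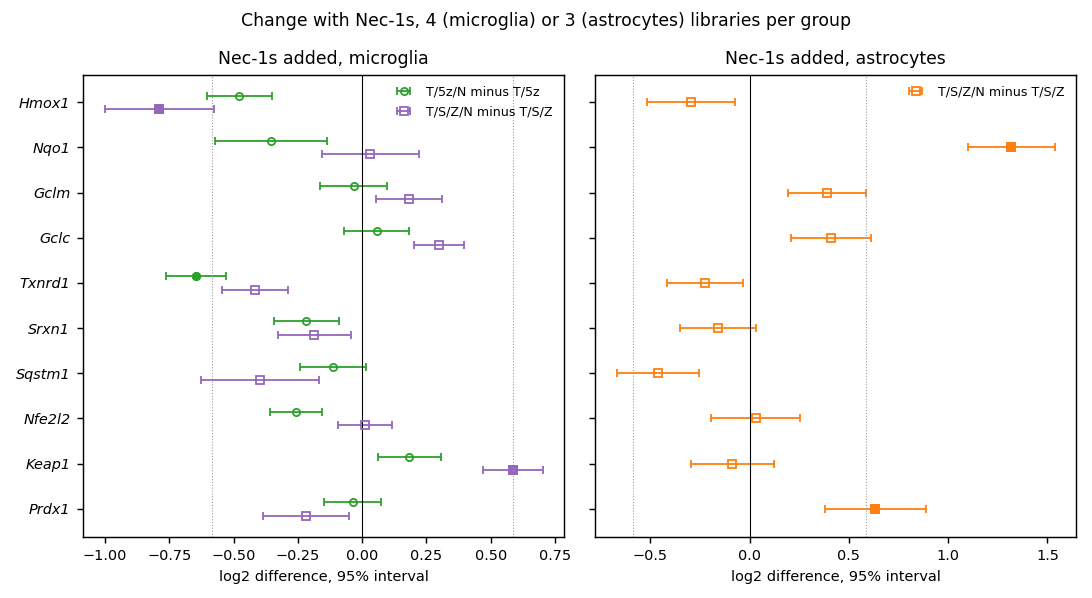
Log2 difference between stimulated cells with and without Nec-1s (horizontal axis, 95% intervals from limma) for the 10 genes in microglia on the left and astrocytes on the right, drawn on different horizontal scales. Filled symbols were called and dotted lines mark a 1.5-fold change; called were Txnrd1 after T/5z and Hmox1 and Keap1 after T/S/Z in microglia, and Nqo1 and Prdx1 in astrocytes.

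Whether Nec-1s acted differently after the 2 stimuli was tested as the difference of the differences. None of the 10 passed both limits in limma, against 6.47% of all genes, 3.77% higher and 2.7% lower, with 7 of the 10 and 4045 of all genes at an unadjusted p under 0.05. An adjusted p under 0.05 without the fold was reached by 5, and by 25.9% of all genes. The Nec-1s difference was lower after T/5z than after T/S/Z for Txnrd1 (-0.65 against -0.42) and Nfe2l2 (-0.26 against 0.01) and higher for Sqstm1 (-0.11 against -0.40). Differences were upward and larger after T/S/Z for Keap1 (0.18 against 0.59) and Gclc (0.06 against 0.30). For Hmox1 the difference between the effects was 0.31 ± 0.11 (adjusted p = 0.0554) and under quantile normalization it was -0.00258.

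Nec-1s alone moved none of the 10. In microglia N minus DMSO gave 0 calls among the 10 and 0% over all genes, with 2 of the 10 and 892 of all genes at an unadjusted p under 0.05 in limma; the 2 were Hmox1 (-0.09 ± 0.03) and Txnrd1 (-0.09 ± 0.03). In astrocytes it gave 0 of the 10 and 0.0144% of all genes, with none of the 10 and 790 of all genes at that unadjusted p. The members differed by at most 0.16 in microglia and by -0.08 to 0.04 in astrocytes.

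In astrocytes 3 of these genes were called after T/S/Z, in both directions. Txnrd1 and Sqstm1 rose and Nqo1 fell, against 15.4% of the 13842 genes tested, 6.39% called higher and 8.99% called lower; the median of the 10 was 0.14, and that of all genes -0.11. Txnrd1 went from 6.92, 6.75 and 6.90 in DMSO to 7.60, 7.53 and 7.47 in T/S/Z, a 1.60-fold rise (log2 0.68 ± 0.07, adjusted p = 0.000557, limma). Sqstm1 went from 7.64, 7.46 and 7.42 to 8.37, 8.25 and 8.08, a 1.65-fold rise (log2 0.73 ± 0.07, adjusted p = 0.000373). Neither pair of groups overlapped. Srxn1 differed by 0.54 ± 0.07, short of the fold minimum, which it passed with centred libraries (0.59), and Nfe2l2 by 0.37 ± 0.08 and Hmox1 by 0.34 ± 0.07 were further below it. With an ordinary per-gene variance the 3 differences were the same in size and none was called, the adjusted p being 0.0709 for Txnrd1, 0.0589 for Sqstm1 and 0.0621 for Nqo1.

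**Figure D4:**
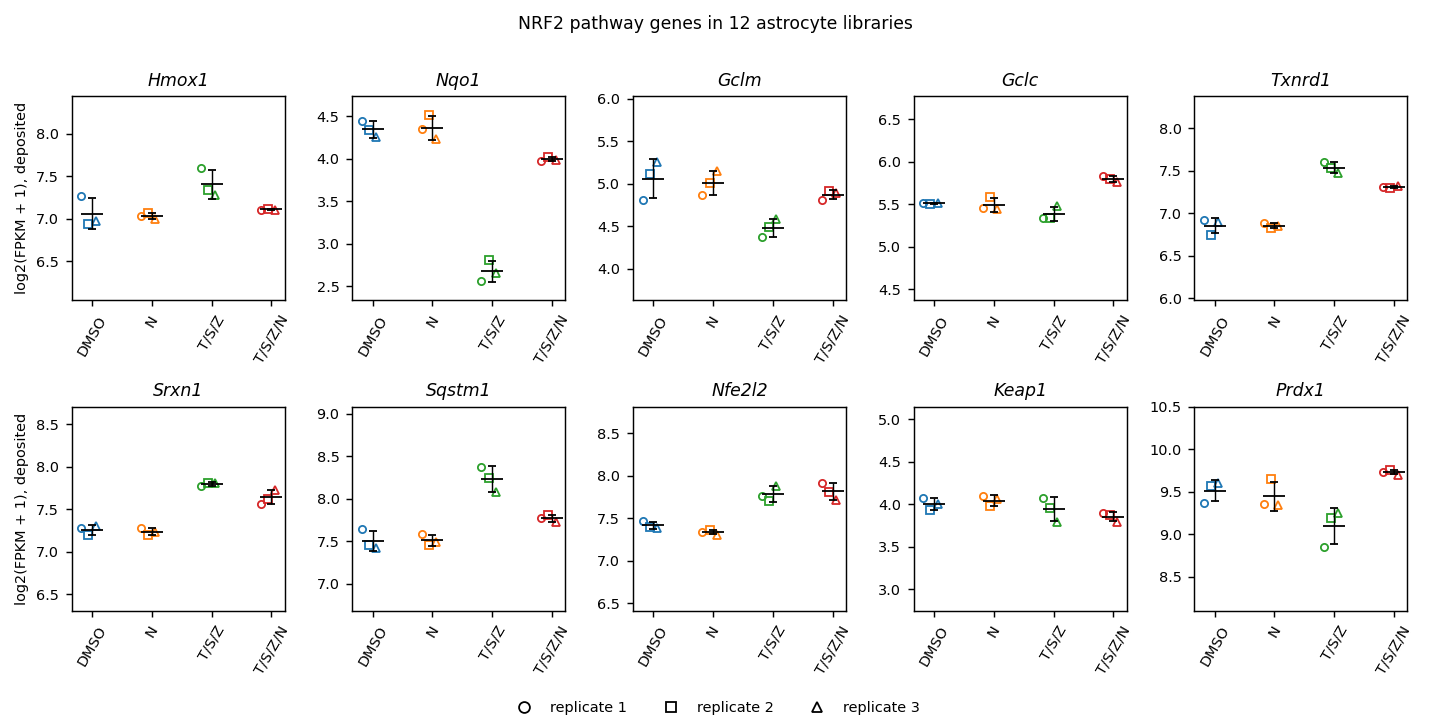
Deposited log2(FPKM + 1) level of each of the 10 genes (vertical axis, every panel spanning at least 2.4 units) in the 4 astrocyte groups (horizontal axis). Points are libraries, with the symbol giving the replicate, and the bars are the mean and SD of 3 libraries; Nqo1 dropped in T/S/Z and stood between T/S/Z and DMSO in T/S/Z/N, while Sqstm1 and Txnrd1 were highest in T/S/Z.

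Nqo1 in astrocytes fell in every T/S/Z library and lay between T/S/Z and DMSO when Nec-1s was present. Its levels were 4.45, 4.33 and 4.25 in DMSO, 2.57, 2.81 and 2.66 in T/S/Z, and 3.98, 4.02 and 3.99 in T/S/Z/N. In FPKM this was 19.4 ± 1.40, 5.42 ± 0.547 and 15.0 ± 0.278 (SD, n = 3). The log2 difference was -1.67 ± 0.10 for T/S/Z minus DMSO (adjusted p = 3.29e-05, limma) and 1.32 ± 0.09 for T/S/Z/N minus T/S/Z (adjusted p = 0.000575), so that 79.0% of the decrease was taken back. T/S/Z/N remained below DMSO in 3 of 3 pairs with no overlap, by -0.35 ± 0.08 (adjusted p = 0.0212), which was not called. With an ordinary per-gene variance the rise with Nec-1s had an adjusted p of 0.196. Fibroblast markers moved the same way: all 4 (Col1a1, Col3a1, Dcn and Lum) fell after T/S/Z and all 4 were higher with Nec-1s added, and their sum was 505 to 517 FPKM in DMSO, 93.4 to 102 in T/S/Z and 413 to 419 in T/S/Z/N. Microglial markers summed to 83.2 to 91.9, 53.8 to 54.5 and 75.03 to 81.9 FPKM in the same groups, with 5 of the 9 tested lower after T/S/Z and 2 higher with Nec-1s added. Of the endothelial markers only Cdh5 was listed, at 12.0 to 12.6, 2.62 to 3.27 and 8.66 to 9.86 FPKM; it fell by 1.74 on the log2 scale after T/S/Z and rose by 1.37 with Nec-1s. After T/S/Z 1 of the 8 astrocyte markers and 1 of the 5 oligodendrocyte lineage markers fell. The part of other cells in the Nqo1 values was not tested.

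Prdx1 in astrocytes was the second gene called with Nec-1s. Its levels were 9.37, 9.56 and 9.60 in DMSO, 8.85, 9.19 and 9.25 in T/S/Z, and 9.74, 9.75 and 9.70 in T/S/Z/N, and every T/S/Z library was below every other library of the 2 groups beside it. The fibroblast, Cdh5 and microglial marker sums given for Nqo1 were likewise lowest in T/S/Z, and their part in the values of Prdx1 and the other astrocyte genes was not tested. The difference of T/S/Z/N minus T/S/Z was 0.63 ± 0.11 (adjusted p = 0.0199, limma), and it was not called without replicate 1 (0.51, adjusted p = 0.0527) without replicate 2 (0.67, adjusted p = 0.105) or with an ordinary per-gene variance (adjusted p = 0.286). Nqo1 and Prdx1 were thus 2 of the 10, against 3.1% of all genes called, 1.51% higher and 1.59% lower. Gclm (0.39 ± 0.08) and Gclc (0.41 ± 0.09) were on the same side with adjusted p values of 0.0376 and 0.036, and Sqstm1 on the other (-0.46 ± 0.09, adjusted p = 0.0275). In T/S/Z/N minus DMSO none of the 10 was called by limma, against 9.08% of all genes, 4.36% higher and 4.72% lower; 7 of the 10 and 5730 of all genes had an unadjusted p under 0.05, and the largest difference was that of Txnrd1 (0.46 ± 0.06).

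Gclm and Prdx1 had opposite signs in the 2 cell types after T/S/Z in every pair of same-numbered libraries. Gclc (0.24 in microglia, -0.12 in astrocytes) and Nqo1 (0.07 and -1.67) also had opposite signs, but not in every microglial pair. Gclm differed from DMSO by 0.93 in microglia and by -0.58 ± 0.08 in astrocytes, where its levels were 4.81, 5.11 and 5.26 in DMSO and 4.37, 4.49 and 4.58 in T/S/Z; the astrocyte difference was just short of the fold minimum and was -0.65 and called without replicate 1. Prdx1 differed by 0.75 and by -0.41 ± 0.08. The difference between cell types was not tested, since the tables were made and normalized separately.

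Other genes of the pathway were taken from 6 lists holding 52 genes, all listed in both tables, of which 51 were tested in microglia and 52 in astrocytes. After T/5z, 12 rose and 6 fell in microglia, and after T/S/Z 17 rose and 7 fell, with medians of -0.06 and 0.09. Over all genes 11.1% were higher and 13.3% lower after T/5z, and 12.2% and 17.5% after T/S/Z. In astrocytes 4 rose and 3 fell after T/S/Z, with a median of -0.16, against 6.39% higher and 8.99% lower of all genes. Nothing particular to these lists or to their parts is read from the counts. Of the 10 glutathione genes, 3 rose after each stimulus in microglia and none fell. Slc7a11, the cystine transporter that feeds glutathione synthesis, rose from a mean log2 level of 2.52 in DMSO to 5.75 in T/5z and 6.58 in T/S/Z, and was lower in T/5z than in T/S/Z by -0.83 ± 0.14 (adjusted p = 0.0036, limma). Gsr, glutathione reductase, differed by 1.11 with T/5z and 1.00 following T/S/Z, and Gstp1, a glutathione transferase, by 0.67 after T/5z, which was called, and 0.10 following T/S/Z. In astrocytes none of these glutathione genes was called after T/S/Z.

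Of the 6 genes that supply NADPH, 1 rose and 1 fell after each stimulus in microglia. Me1, malic enzyme, rose by 0.70 and 0.64, and Idh1, cytosolic isocitrate dehydrogenase, fell by 1.02 with T/5z and by 1.58 following T/S/Z; Idh1 fell by 0.60 in astrocytes after T/S/Z. Of the 7 genes of iron and haem, 1 rose and 2 fell after T/5z and 2 rose and 2 fell after T/S/Z. Slc40a1, the iron exporter ferroportin and a known NRF2 target, fell by 1.76 and 1.88 in microglia and by 1.09 in astrocytes, and Hmox2, the constitutive haem oxygenase, fell by 0.94 and 0.72, while the haem transporter Slc48a1 rose by 0.76 and 0.66.

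Among the 13 genes of the thioredoxin, peroxiredoxin, superoxide and catalase list, 2 rose and none fell after T/5z, and 4 rose and 1 fell after T/S/Z. Sod2, the mitochondrial superoxide dismutase, which is also a target of NF-κB, rose by 3.38 with T/5z and 3.10 following T/S/Z in microglia and by 1.03 in astrocytes. Prdx5 rose by 1.41 and 1.502. Txnip, which binds and inhibits thioredoxin, differed by -0.57 after T/5z, which was not called, and fell by 1.98 after T/S/Z and by 0.86 in astrocytes; it was higher in T/5z than in T/S/Z by 1.42 ± 0.04 (adjusted p = 4.98e-06, limma), and Nec-1s raised it by 1.37 after T/S/Z.

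The list of NRF2 regulators held Cul3, Rbx1, Btrc, Nfe2l1, Bach1, Bach2, Mafg, Maff and Mafk. Of these 9 genes, 8 were tested in microglia, where 3 rose and 1 fell after T/5z and 4 rose and 1 fell after T/S/Z. Over all genes 24.4% and 29.6% were called. Maff, a small MAF protein, rose from 2.10 in DMSO to 4.82 in T/5z and 6.48 in T/S/Z, and stood at 3.32 in T/5z/N and 3.67 in T/S/Z/N. Mafg rose by 0.90 and 1.31. Mafk rose by 1.06 after T/S/Z and not after T/5z (-0.15), and was lower in T/5z than in T/S/Z by -1.21 ± 0.08 (adjusted p = 5.94e-05, limma). Bach1, the repressor that competes with NRF2, fell in microglia by 1.18 with T/5z and by 0.69 following T/S/Z, whereas in astrocytes it rose by 1.42 and Maff rose by 1.34; the difference between cell types was not tested. Of the 7 genes of detoxification and export, 2 rose and 2 fell after T/5z and 3 rose and 2 fell after T/S/Z, among them the glutathione conjugate exporter Abcc1 (1.56 and 1.73), the carbonyl reductase Cbr3 (-0.75 and -0.85) and esterase D, Esd (0.48, not called, and 1.05).

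Between the stimuli, 1 of the 51 list genes tested was called higher in T/5z than in T/S/Z, Txnip, and 3 lower, Slc7a11, Maff and Mafk, against 4.42% higher and 5.42% lower of all genes. The 5 tested genes outside the members and lists whose levels over the 24 microglial libraries were most like the mean standardized level of Hmox1, Nqo1, Gclm, Gclc, Txnrd1 and Srxn1 were Pid1, Lpcat2, Cyfip1, Gsap and Crlf3, with Pearson r of 0.974 to 0.979. Those libraries fall into the 6 treatment groups, so these values describe a shared pattern over groups. Of the 6 genes in that mean, Nqo1 was the least like it (r = 0.30) and Txnrd1 the most (r = 0.97).

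Neighbouring genes limit some of these values. The annotation in the tables marks Gclm, Txnrd1, Sqstm1, Nfe2l2 and Keap1 as sharing sequence with other genes, as it does 50.9% of microglial and 56.4% of astrocyte genes. In GENCODE M21 Sqstm1 shares 580 exon bases with Mrnip on the opposite strand, and Gclm shares 296 with Gm17494 on the opposite strand and 244 with the pseudogene Gm6061 on its own strand. The 10 genes lie on GRCm38 chromosomes 8 (Hmox1, at 75093621 to 75100589, and Nqo1, at 107388225 to 107403206), 3 (Gclm, from 122245557 to 122270732), 9 (Gclc, from 77754535 to 77794485, and Keap1, from 21229730 to 21239361), 10 (Txnrd1, from 82833951 to 82897712), 2 (Srxn1, from 152105516 in the astrocyte table and GENCODE M21, or 152105524 in the microglial table, to 152111376, and Nfe2l2, from 75675513 to 75704641), 11 (Sqstm1, from 50199366 to 50210827) and 4 (Prdx1, from 116685544 to 116700822).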

How the data were processed

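RNA was sequenced from 24 microglial and 12 astrocyte libraries. The deposited values are log2 FPKM, made by the authors in OmicSoft Array Studio. The addition of 1 and a scaling to a common upper quartile are read from the values (upper quartiles of 4.11 to 4.16 in microglia and 4.73 to 4.74 in astrocytes), and the build from gene coordinates, which match GENCODE M21 (GRCm38) for the members except the start of Srxn1 in the microglial table; the aligner settings are not given in the sources used here. In the microglial table the mean of every gene is the same in all 4 replicates (largest difference 6.67e-05), and replicates 1 to 3 hold 187 to 1438 negative values per library against 0 in replicate 4 and 0 among the members; this adjustment is not described in the sources used here. No sample columns were left unused, and columns were matched to samples through their labels.

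Genes with a log2 value of at least 1 in at least 4 microglial or 3 astrocyte libraries were tested (10524 and 13842) with limma 3.58.1 in R 4.3.3 (lmFit, eBayes with trend) on the libraries of the compared groups, blocked by replicate number, since the study used a paired test; p-values are 2-sided. A fold change is therefore of FPKM + 1 and understates that of low genes. The pairing check correlated same-numbered libraries' deviations from group means: in astrocytes 5 of 18 pairs were over 0.1 (-0.144 to 0.411), and in microglia the adjustment fixes these deviations, so it is void. Promoters were searched and figures drawn with Python 3.11.15, pandas 2.3.3, numpy 2.4.6 and matplotlib 3.10.9. The depth estimate is the number of fragments at which low values times exon length came closest to whole steps (a median of 80.7% of astrocyte and 66.5% of microglial replicate 4 values within 0.1 of a whole number); it covers counting only, and whole reads were not recovered. The members, lists and rule for named genes (of each list up to 3 called genes with the largest difference between or after the stimuli in microglia and up to 2 in astrocytes; Bach1 and Maff are given in both cell types) were chosen with earlier results of these data known. Alternatives were other scalings, pseudocount, filters, variance models, fits, no block and leaving out each replicate.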

Additional observations from a re-analysis of the deposited data

Results flagged for a closer look

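Replicate 4 stood apart from the other 3 microglial libraries for Nqo1 in T/S/Z/N (1.304, where the others were 0.82 to 0.86) and for Gclm in T/5z/N (6.98, where the others were 6.80 to 6.82). These were the 2 of 60 groups of 4 microglial libraries in which 1 library was past Dixon's 95% critical value, where about 3 would be expected by chance at 1 in 20, and both are from the replicate whose values had not been adjusted.

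Every microglial pair moved one way and every astrocyte pair the other for 4 differences, which were not tested against each other: Gclm after T/S/Z (0.93 in microglia, -0.58 in astrocytes), Prdx1 after T/S/Z (0.75 and -0.41), Prdx1 with Nec-1s added to T/S/Z (-0.22 and 0.63) and Keap1 with Nec-1s added to T/S/Z (0.59 and -0.09). The astrocyte difference of Keap1 had an adjusted p of 0.54 in limma. Its groups overlapped, and its pair differences ran from -0.17 to -0.0017.

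None of the 10 genes passed both limits in the contrast of Nec-1s effects between the stimuli. At an adjusted p under 0.05 in limma alone, reached by 25.9% of all genes, there were 5, each in 4 of 4 replicates. The difference (effect after T/5z minus effect after T/S/Z) was -0.24 for Gclc (adjusted p = 0.0202), -0.23 for Txnrd1 (adjusted p = 0.0148), 0.28 for Sqstm1 (adjusted p = 0.0193), -0.27 for Nfe2l2 (adjusted p = 0.0098) and -0.40 for Keap1 (adjusted p = 0.000848), all under the 1.5-fold minimum.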

How the results depend on the processing

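Of 1794 alternative values, 1554 of those for single genes kept their direction and side of the limits. Of the 164 counts, 136 were equal to those reported, 16 differed by 1.5 times or less, and 12 moved further. Counts of the 10 genes moved by more than 1.5 times in these cases: T/5z minus T/S/Z, 2 as reported and 3 to 4 with 1 replicate left out; T/5z/N minus T/5z, 1 and 0 under quantile normalization; T/S/Z/N minus T/S/Z, 2 and 1 with centred libraries, 0 under quantile normalization, 1 with 5 added before the log and 1 to 2 with 1 replicate left out; T/5z/N minus T/S/Z/N, 3 and 1 to 3 with 1 replicate left out; and in astrocytes, with an ordinary per-gene variance, 0 in T/S/Z minus DMSO (3 as reported) and 0 in T/S/Z/N minus T/S/Z (2 as reported, and 1 to 2 with 1 replicate left out). Under that variance over all genes the astrocyte counts were also far lower, 281 in place of 2130, 3 in place of 429 and 50 in place of 1257 in T/S/Z/N minus DMSO; that of 429 was 274 without replicate 2 and 761 without replicate 3. The causes were not tested. Without the replicate block the counts of the 10 in astrocytes were those reported (3 in T/S/Z minus DMSO, 2 in T/S/Z/N minus T/S/Z, 0 in the others). In microglia they were too (6 after T/5z, for example), with 2566 in place of 2563 calls over all genes there and 748 in place of 754 in T/5z/N minus T/5z. Replicate means had already been made equal in microglia, so this check says little about the block there. Whether the numbers pair cultures is not given. The filter on a mean log2 of at least 3 left Nqo1 untested in microglia.

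Adding 5 before the log or that filter cut the calls over all genes to 40.5% to 63.8% of those reported in microglia and to 42.0% to 52.4% in astrocytes, so the shares beside each count depend on them (with 5 added, 1484 in place of 2563 in T/5z minus DMSO and 1633 in place of 3118 in T/S/Z minus DMSO). Centring moved the share of calls that were higher from 41.1% to 52.7% in T/S/Z minus DMSO and from 44.3% to 28.9% in T/S/Z/N minus T/S/Z.

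Signs that reversed were all of differences that had not been called. Under quantile normalization they were Sqstm1 (-0.0157) and Prdx1 (-0.0168) in N minus DMSO, Keap1 (-0.0151) in T/5z minus DMSO, Gclm (0.063) and Prdx1 (0.0116) in T/5z/N minus T/5z, Srxn1 (0.133) and Prdx1 (0.0600) in T/S/Z/N minus T/S/Z, Hmox1 (-0.00258) and Prdx1 (-0.0484) in the contrast of Nec-1s effects. With centred libraries they were Nqo1 (-0.0421) and Nfe2l2 (-0.0618) in T/S/Z/N minus T/S/Z, Txnrd1 (-0.00345) in astrocyte N minus DMSO. With 1 replicate left out the sign turned for the following, given as the lowest to the highest value. For N minus DMSO these were Gclm (-0.0107 to 0.0382), Srxn1 (-0.0132 to 0.0577), Prdx1 (-0.0025 to 0.0186), Nfe2l2 (-0.0457 to 0.0158), Keap1 (-0.042 to 0.0482) and Sqstm1 (-0.006 to 0.0364). For T/5z minus DMSO this was Keap1 (-0.0139 to 0.0938). For T/S/Z minus DMSO this was Nqo1 (-0.0348 to 0.147). For T/5z/N minus T/5z this was Gclm (-0.0778 to 0.0146). For T/S/Z/N minus T/S/Z this was Nfe2l2 (-0.012 to 0.0279). For T/S/Z/N minus DMSO these were Keap1 (-0.0148 to 0.0986) and Nqo1 (-0.0182 to 0.153). For the contrast of Nec-1s effects this was Srxn1 (-0.108 to 0.0504). For astrocyte N minus DMSO these were Hmox1 (-0.109 to 0.0769), Gclc (-0.068 to 0.0109), Nqo1 (-0.0578 to 0.0807), Txnrd1 (-0.0376 to 0.0254), Srxn1 (-0.0367 to 0.0018), Sqstm1 (-0.0262 to 0.036) and Prdx1 (-0.139 to 0.0333). For astrocyte T/S/Z minus DMSO this was Keap1 (-0.102 to 0.0127). For astrocyte T/S/Z/N minus T/S/Z this was Nfe2l2 (-0.0307 to 0.131). For astrocyte T/S/Z/N minus DMSO this was Hmox1 (-0.015 to 0.154).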
